A study of Mus musculus with 15 samples.

Results

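MS023 is a small-molecule inhibitor of the type I arginine methyltransferases, and its effect on the transcriptome of CT26 cells after 48 hours was compared with that of vehicle. CT26 is a mouse colon tumor cell line, and the cells were of WT genotype in every library used here. The comparison rests on 6 of the 15 libraries of the series, which were taken by their labels: 3 from cells given vehicle and 3 from cells given 6 µM MS023. A further 3 libraries from CT26 cells given 6 µM GSK3368715, another type I inhibitor, for 48 hours stood in the same fit, and served for a direct comparison of the compounds. The study asked how inhibition of PRMT1 alters gene expression in tumor cells, and programmes other than the interferon, MYC and E2F signatures are described here. The labels do not say whether the libraries of a group came from separate cultures, so the p-values measure the spread between these libraries, which may be technical.

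Protein arginine methyltransferases transfer methyl groups from S-adenosylmethionine to arginine residues. Type I enzymes (PRMT1, PRMT2, PRMT3, CARM1, PRMT6 and PRMT8) form asymmetric dimethylarginine, with PRMT1 as the main enzyme in most cells, whereas type II enzymes such as PRMT5 form the symmetric mark. Their substrates include histones, RNA-binding and splicing proteins, and DNA repair factors such as MRE11. An enzyme inhibitor acts on the protein, so the transcript of the target need not move.

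The values are normalized counts, that is, gene counts divided by the size factor of the library. Whole reads could be recovered from them, and amounted to 48766758 to 73450043 per vehicle library and 53597407 to 93697833 per MS023 library. Genes reaching 10 normalized counts in 3 or more of these 9 libraries were kept, which left 13014 of 34432. They were tested with limma after log2(normalized count + 1), and every fold change below is on that scale, where changes of genes with few reads come out too small. A gene is called when its adjusted p is under 0.05. Where 2 runs of 3 values follow each other without a label, the vehicle libraries come first and the MS023 libraries second. The labelled origin was checked against marker genes: of 10 colon epithelial markers only 4 passed the filter (Krt8, Krt18, Krt20 and Cdx2), Epcam was at 0 in the 6 libraries and Cdh1 averaged 0.55 normalized counts under vehicle, while the mesenchymal gene Vim averaged 196573. The 10 leukocyte markers summed to 220 to 291 normalized counts per vehicle library and 248 to 293 per MS023 library, most of it Cd68, with Cd3e at 0. The 7 fibroblast markers summed to 3544 to 4539 under vehicle and 4237 to 4940 under MS023. Among them Pdgfrb, Col3a1 and Pdgfra averaged 1876, 1181 and 826 normalized counts under vehicle, while Thy1 was at 0. Pdgfrb was called higher under MS023 (log2 fold change 0.40), but not without library MS023 2 or MS023 3. The 6 endothelial markers summed to 50.3 to 67.5 under vehicle and 51.4 to 60.6 under MS023 with Emcn at 0. Mitochondrially encoded genes took 1.37% to 2.76% of the reads under vehicle and 1.99% to 2.62% under MS023.

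Prmt1, which encodes the main type I enzyme, was not called under MS023, and 27.9% of the genes tested were, most of them by small amounts. Prmt1 had 15593, 16107 and 15133 normalized counts in the vehicle libraries and 15215, 14064 and 15201 in the MS023 libraries, and the groups overlapped (-0.075 on the log2 scale, adjusted p = 0.35). Across the genes tested, 1784 were called higher (13.7%) and 1841 lower (14.1%) under MS023, together 3625 or 27.9%. The vehicle and MS023 values were fully apart in 44.5% of the genes. The median absolute log2 fold change of the genes called was 0.38, and 365 of them changed by at least 1, of which 234 were higher and 131 lower. Without MS023 2, the number of genes called was 2409, and 1181 of them were higher. With libraries scaled to equal totals, the calls divided into 2200 higher and 1509 lower, while the median fold change of all genes moved by 0.034.

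Of the 5 type I enzymes tested, only Prmt3 was called, which methylates the small ribosomal subunit protein uS5. It had 4837, 4353 and 4479 normalized counts under vehicle and 3480.2, 3499 and 3457 under MS023, a change of -0.39 ± 0.061 (log2 fold change ± standard error, adjusted p = 0.0012). Prmt2 (0.16, adjusted p = 0.11, 0.045 without vehicle 1), Carm1 (0.058, 0.54) and Prmt6 (0.041, 0.67) were not called, and Prmt8 did not pass the filter. The median of the 5 was 0.041, and Prmt3 is also a member of the MYC list. Among the other methyltransferases and their partners, Prmt9 (0.299) and Coprs (0.402), a histone adaptor of PRMT5, were higher, and Prmt7 (-0.26) and Wdr77 (-0.196), the MEP50 partner of PRMT5, were lower, with a median of -0.1 over the 6 tested. Without MS023 2 the adjusted p was 0.0521 for Prmt7 and 0.103 for Wdr77, and Wdr77 was also not called without vehicle 2, vehicle 3 or MS023 3. Prmt5 itself had 5370, 5047 and 5189 normalized counts under vehicle and 4789, 4358 and 4788 under MS023 (-0.16, adjusted p = 0.0501), and Clns1a, another partner, was not called (-0.035, adjusted p = 0.63).

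To describe the response, 32 gene lists were written by hand from common knowledge of each pathway. The lists and their members were chosen with earlier results of these data known. Their shares therefore describe the lists and do not test for an excess over all genes. Each list is given by its members called and its median. Of all genes tested 13.7% were called higher and 14.1% lower, with a median log2 fold change of 0.0028. Of the 32 lists, 9 share between 1 and 6 members with the interferon, MYC and E2F lists. The lists of sterol synthesis, the NRF2 antioxidant response, the lysosome and the death receptor and BCL2 family had the largest shares of members called higher. The lists of tRNA synthetases, the RAS-ERK output and the ATF4 amino acid response had the largest shares called lower. Where leaving out 1 vehicle or MS023 library moved a count by more than 1.5 times and by at least 2 genes, the count without it follows. The members with values per library were named by a fixed rule, apart from Mgst1 and Fas, and the further members given with a fold change alone were, like these, picked after their values were seen, among calls that no single library decided unless stated.

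**Figure D1:**
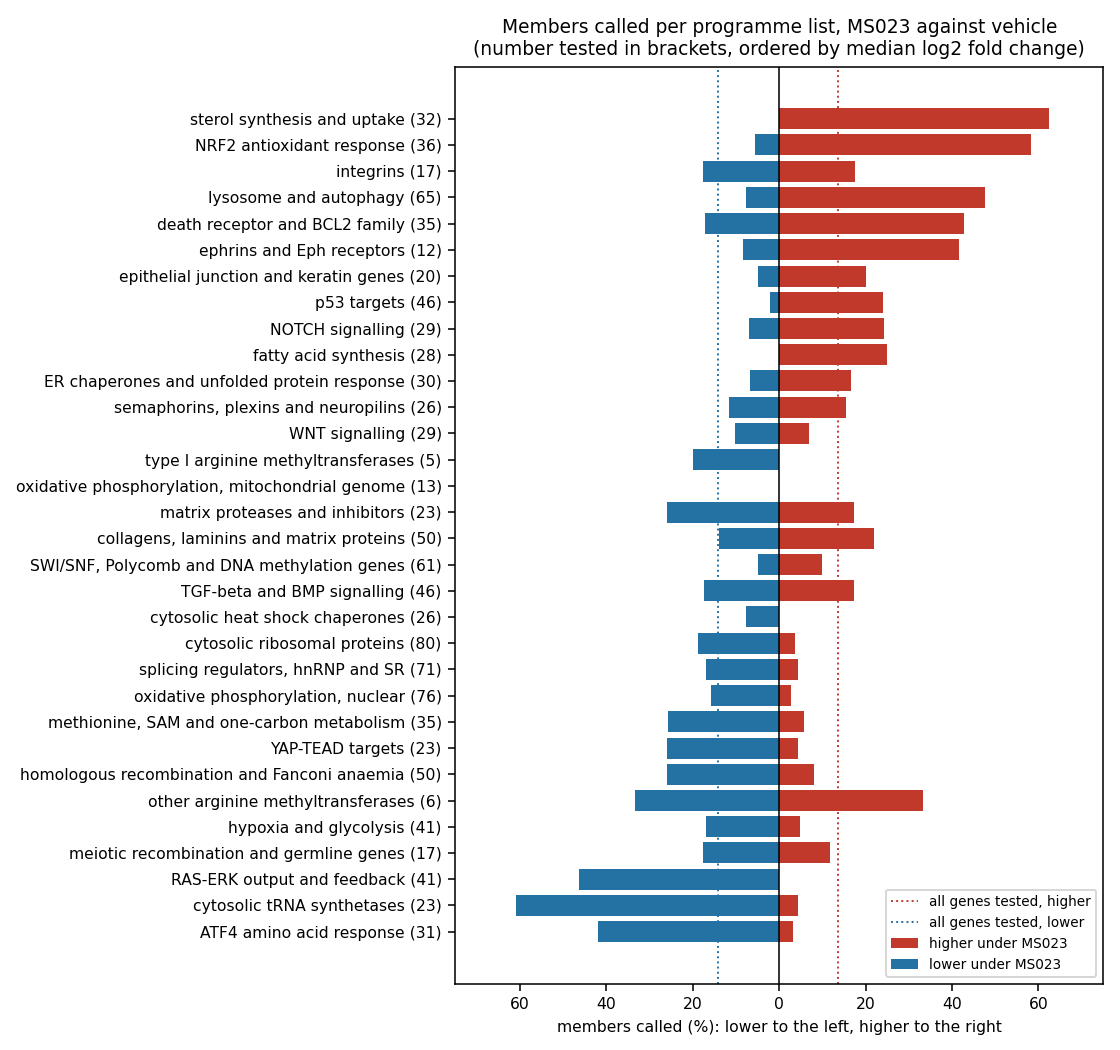
Share of the members tested in each of 32 programme lists that were called higher (right) or lower (left) under MS023, in percent, with the lists ordered by their median log2 fold change. Dotted lines mark the 13.7% and 14.1% of all genes tested that were called higher and lower, and the sterol list reaches 62.5% higher with no member lower.

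Cholesterol is made from acetyl-CoA through the mevalonate pathway, whose genes are switched on by the transcription factor SREBP2 when sterols are low, and INSIG proteins hold SREBP in the endoplasmic reticulum when sterols are plentiful. Of the 32 members tested of the list of sterol synthesis and uptake, 20 were called higher under MS023 and none lower, with a median log2 fold change of 0.37. Insig1 had 7270.4, 7114 and 7179 normalized counts under vehicle and 13029.8, 13125 and 12613 under MS023, a change of 0.85 ± 0.059 (adjusted p = 2.1e-05). Hmgcs1, the synthase that makes HMG-CoA, had 6595, 10913 and 8506 and 15412, 14888 and 13959 (0.796, adjusted p = 0.0031). In both genes the lowest MS023 library lay above the highest vehicle library, although vehicle 2 stood above the other vehicle libraries for Hmgcs1. The steps that follow moved as well, with Idi1, the isopentenyl diphosphate isomerase, at 0.67, Mvd, the mevalonate diphosphate decarboxylase, at 0.65, Fdps at 0.49 and Fdft1, which commits the pathway to sterols, at 0.52. In the steps that form lanosterol and turn it into cholesterol, Lss (0.61), Cyp51 (0.38), Nsdhl (0.64) and Dhcr7 (0.53) were called higher. Srebf2, which encodes SREBP2, was not called (0.13, adjusted p = 0.12). Mylip, an E3 ubiquitin ligase, was higher (0.496), as was Npc2 (0.51), which exports cholesterol from lysosomes. In the list of fatty acid synthesis 7 of 28 were higher (25%, beside 13.7% of all genes tested) and none lower (14.1% of all genes), with a median of 0.09. Acsl3 (0.51), Acss2 (0.45) and the citrate carrier Slc25a1 (0.44) led them. However, 4 were higher without vehicle 1, vehicle 3, MS023 2 or MS023 3, and 2 were lower without vehicle 2. Acsl3 shares exon bases with Utp14b, and Acss2 with Ggt7 and Gss, and the sums changed by 0.23 and 0.28.

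The letters of a sterol regulatory element, TCACNCCAC read on either strand, stood in 1.44% of all 27025 genes' promoters and 1.34% of those of genes tested (RefSeq, GRCm38.p6, from 250 bases before the start to 50 after). Promoters were at hand for 24 of the 32 list members tested, which is too few for a share of this list. Hmgcs1 was the member in which the letters were found, and its 250 bases before the start (chr13:119690101-119690350, plus strand) are shown with the match in capitals.
Hmgcs1: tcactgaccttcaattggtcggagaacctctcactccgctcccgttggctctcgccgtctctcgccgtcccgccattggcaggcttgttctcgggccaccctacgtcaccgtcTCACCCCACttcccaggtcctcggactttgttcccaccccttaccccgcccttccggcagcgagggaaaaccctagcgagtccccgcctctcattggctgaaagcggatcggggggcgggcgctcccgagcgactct

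NRF2 is a transcription factor that KEAP1 marks for degradation until oxidants or electrophiles release it, and it drives genes of glutathione, thioredoxin, iron and NADPH metabolism through the antioxidant response element. Under MS023, 21 of the 36 members tested of this list were called higher and 2 lower, with a median of 0.34. The glutathione transferases moved most among the members with ample reads. Gsta4 had 658, 596 and 628 normalized counts under vehicle and 1538, 1575 and 1549 under MS023 (1.31 ± 0.063, adjusted p = 1.9e-06), and Gstm1 had 2350.1, 2086 and 2125 and 4506, 4619 and 4899 (1.097, adjusted p = 4.6e-06). The groups did not overlap in either gene. Mgst1, a microsomal transferase, had the largest fold change of the list (1.46) at low counts, 15.9, 13.2 and 22.9 under vehicle and 63.1, 42.7 and 41.7 under MS023. Nqo1, the quinone reductase that is widely used as a readout of NRF2, had 114, 131 and 121 and 259, 223 and 262 (1.02, adjusted p = 3.7e-04), and Osgin1 had 197, 149 and 159 and 375, 294 and 379.7 (1.05, adjusted p = 0.0012). In iron handling, the ferritin chains Ftl1 (0.93) and Fth1 (0.54) and the heme oxygenase Hmox1 (0.56) were higher. Hmox1 had 4959, 4595 and 4705 under vehicle and 6538, 6873 and 7688 under MS023. In NADPH supply, Pgd (0.71), Me1 (0.35) and G6pdx (0.28) were higher, and in the thioredoxin and peroxide systems Txnrd1 (0.43), Srxn1 (0.39), Cat (0.61) and Gpx4 (0.44). Slc7a11, the cystine importer, was lower (3298, 3321 and 4035 against 2019, 2613 and 2545, -0.57, adjusted p = 0.0066), and so was Keap1 (3353, 3418 and 3450.3 against 2351, 2605 and 2612, -0.44, adjusted p = 4.0e-04). Nfe2l2, which encodes NRF2, was not called (0.082, adjusted p = 0.26).

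The core letters of the antioxidant response element, TGACNNNGC on either strand, were found in the promoters of 13 of the 31 list members with a promoter at hand (41.9%, 95% exact binomial interval 24.5% to 60.9%), against 14.0% of all promoters. A TGAC run can also belong to an AP-1 site, and the letters alone do not tell them apart. Among the genes tested the letters stood in 16.7% of promoters. The list was written from common knowledge of the pathway, which NRF2 drives through this element. Its share of promoters with the letters therefore describes the list and not the response to MS023. Of the 13 members with the letters 8 were called higher and none lower, and of the 18 without them 9 were higher and 2 lower. With only the 250 bases before the start, 10 of the 31 held the letters (32.3%), against 11.5% of all promoters and 13.7% of those of genes tested. In this window 5 of the 10 with the letters were higher and none lower, and of the 21 without them 12 were higher and 2 lower. The promoters of Mgst1 (chr6:138140277-138140526, plus strand), Txnrd1 (chr10:82858956-82859205, plus strand) and Ugdh (chr5:65435843-65436092, minus strand), 3 members that were higher, are shown over these 250 bases with each match in capitals.
Mgst1: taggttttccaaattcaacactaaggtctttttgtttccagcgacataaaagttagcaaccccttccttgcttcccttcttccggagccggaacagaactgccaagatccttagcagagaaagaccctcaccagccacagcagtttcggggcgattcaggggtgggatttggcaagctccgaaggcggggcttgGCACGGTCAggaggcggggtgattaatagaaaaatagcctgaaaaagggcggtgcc
Txnrd1: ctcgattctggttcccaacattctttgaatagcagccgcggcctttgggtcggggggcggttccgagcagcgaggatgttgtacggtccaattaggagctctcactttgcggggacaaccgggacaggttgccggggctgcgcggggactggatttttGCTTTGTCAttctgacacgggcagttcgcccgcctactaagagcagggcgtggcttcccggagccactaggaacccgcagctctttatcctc
Ugdh: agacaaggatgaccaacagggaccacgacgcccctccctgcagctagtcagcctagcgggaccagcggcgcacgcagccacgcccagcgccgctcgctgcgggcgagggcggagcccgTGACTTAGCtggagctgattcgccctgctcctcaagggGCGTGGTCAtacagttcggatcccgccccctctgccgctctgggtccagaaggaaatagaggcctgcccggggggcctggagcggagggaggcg

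Lysosomes degrade macromolecules with acid hydrolases, and many of their genes are coordinated by TFEB and its relatives through the CLEAR element. In the list of lysosome and autophagy genes 31 of 65 members tested were called higher and 5 lower, with a median of 0.21. Without vehicle 3 or without MS023 2, 19 were called higher. Ctsa, the protective protein of the sialidase complex, had 4839.6, 3882 and 4082 normalized counts under vehicle and 7674, 7299.7 and 8124 under MS023 (0.86, adjusted p = 8.3e-05), and it shares 495 exon bases with Pltp on the opposite strand, which had 4.89, 4.95 and 3.62 and 14.4, 14.2 and 14.5. Lipa, the acid lipase, had 1925, 1732 and 1814 and 2836, 2953 and 2838 (0.66, adjusted p = 8.2e-05), and Gpnmb, a membrane glycoprotein of lysosomes and melanosomes, had 7597, 4813 and 6788 and 10103, 11085 and 10772 (0.76, adjusted p = 0.0042). Grn (0.64), Gla (0.61), Neu1 (0.57), Ctsd (0.54) and Lamp1 (0.46) were also higher. Among the members that were lower, Sgsh, the heparan N-sulfatase, had 425, 367 and 353 under vehicle and 147, 155 and 162 under MS023 (-1.296, adjusted p = 1.5e-04), Naglu, which acts on the same polymer, had 1558, 1157 and 1319 and 703, 863 and 879 (-0.72, adjusted p = 0.0057), and Galns (-0.595) and Glb1 (-0.62) are further hydrolases. The autophagy gene Wipi2 (-0.23), which was also lower, was not called without vehicle 1, vehicle 3, MS023 1 or MS023 2. Sgsh shares 955 exon bases with Card14 on the opposite strand, and their sum changed by -1.28. Glb1 shares 165 exon bases with Tmppe on the same strand, and their sum changed by -0.46. Ctsa also shares 324 exon bases with Neurl2 on the opposite strand, which was lower (-1.17, adjusted p = 0.012). Ctsa, Neurl2 and Pltp together changed by 0.85.

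The core of the CLEAR element, TCACGTG on either strand, was in 4.29% of all promoters and 6.82% of those of genes tested, and it contains the general E-box CACGTG. Promoters were at hand for 51 of the 65 members tested, too few for a share of the list. The letters were found in members that rose and in members that fell, as the promoters of Ctsa (chr2:164833523-164833772, plus strand), Gla (chrX:134601006-134601255, minus strand) and Lamp1 (chr8:13158911-13159160, plus strand), which were higher, and of Sgsh (chr11:119355511-119355760, minus strand), which was lower, show over 250 bases before the start with the matches in capitals.
Ctsa: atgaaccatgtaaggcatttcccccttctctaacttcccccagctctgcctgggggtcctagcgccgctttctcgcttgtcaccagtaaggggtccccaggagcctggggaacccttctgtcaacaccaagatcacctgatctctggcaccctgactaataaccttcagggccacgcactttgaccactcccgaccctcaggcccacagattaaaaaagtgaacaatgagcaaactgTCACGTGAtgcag
Gla: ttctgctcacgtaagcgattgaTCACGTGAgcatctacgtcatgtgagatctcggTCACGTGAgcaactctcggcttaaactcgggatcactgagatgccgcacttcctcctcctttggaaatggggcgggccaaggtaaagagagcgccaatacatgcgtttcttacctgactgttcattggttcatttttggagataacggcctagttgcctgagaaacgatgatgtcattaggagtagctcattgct
Lamp1: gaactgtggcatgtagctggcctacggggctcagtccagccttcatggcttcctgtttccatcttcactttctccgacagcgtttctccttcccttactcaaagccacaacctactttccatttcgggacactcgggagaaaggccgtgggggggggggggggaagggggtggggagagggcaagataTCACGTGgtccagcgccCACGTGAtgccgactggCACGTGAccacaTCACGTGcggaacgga
Sgsh: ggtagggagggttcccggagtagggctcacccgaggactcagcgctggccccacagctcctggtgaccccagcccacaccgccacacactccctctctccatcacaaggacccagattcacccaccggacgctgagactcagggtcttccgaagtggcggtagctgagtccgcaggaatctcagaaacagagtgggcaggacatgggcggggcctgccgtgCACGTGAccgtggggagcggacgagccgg

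**Figure D2:**
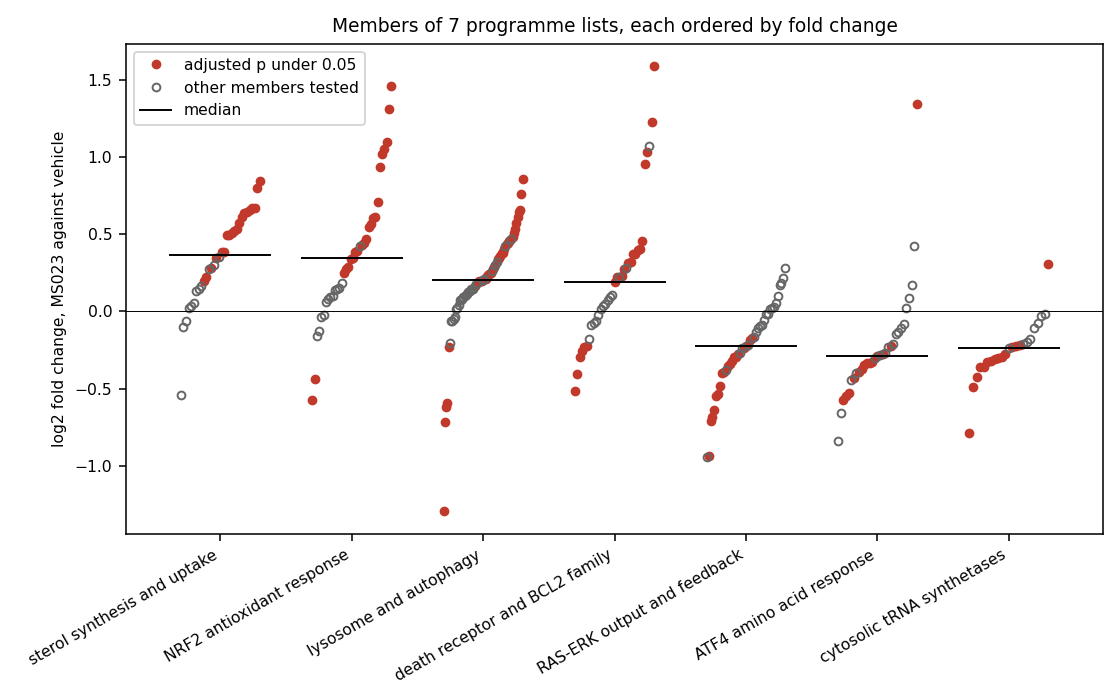
Log2 fold change under MS023 against vehicle of each member tested in 7 programme lists (vertical axis), ordered within a list, with filled points for members called, open points for the others and a line at the list median. The sterol and NRF2 medians lie at 0.37 and 0.34, and those of the RAS-ERK, ATF4 and tRNA synthetase lists below 0.

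RAS-ERK signalling carries growth factor signals to the nucleus, where it induces immediate early transcription factors, growth factor ligands and its own feedback inhibitors. Of the 41 members tested of this list none was called higher and 19 were called lower, with a median of -0.23, while 12 were lower without MS023 1 and 2 were higher without vehicle 2 or with each library scaled to the same total. Of the 39 members outside the interferon, MYC and E2F lists 18 were lower. Among the ligands of the EGF receptor, Hbegf had 2376, 2852 and 2424 normalized counts under vehicle and 1286, 1312 and 1378 under MS023 (-0.94, adjusted p = 8.6e-05), and Ereg was lower as well (-0.64). Errfi1, a feedback inhibitor of that receptor, had 8193, 10555 and 8664 and 5586, 5412 and 5641 (-0.71, adjusted p = 3.5e-04). Egr1, an immediate early factor, had 2296, 2263 and 2065 and 1349.6, 1382 and 1393 (-0.68, adjusted p = 2.5e-04). No MS023 library reached the vehicle range in these genes. The AP-1 genes Fosb (-0.54), Jun (-0.49) and Fosl1 (-0.399) and the feedback genes Spry2 (-0.35), Spry4 (-0.296) and Dusp6 (-0.24, 7199.5, 6979 and 6854 against 5787, 6068 and 6010.1) were lower. Ccnd1, the cyclin induced late in this cascade, was not called (0.102, adjusted p = 0.21). In the list of YAP-TEAD targets 6 of 23 were lower (26.1%, beside 14.1% of all genes tested) and 1 higher (4.35%, beside 13.7%), with a median of -0.078. Ankrd1 (12852, 10378 and 12096 against 7277, 7291 and 7172, -0.69) and Ccn1 (9415, 9595 and 8802 against 6102, 5896 and 5971, -0.63) led the decreases, whereas Ccn2 was not called (-0.082, adjusted p = 0.57). The number of YAP-TEAD targets called lower was 3 without vehicle 2, vehicle 3, MS023 1 or MS023 3, with no filter, or with equal totals.

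ATF4 is translated when amino acids run short or the endoplasmic reticulum is stressed, and it induces amino acid transporters, serine and asparagine synthesis and tRNA synthetases. Of 31 members tested 13 were lower and 1 higher, with a median of -0.29. Asns, the asparagine synthetase, had 39859, 34055 and 36856 normalized counts under vehicle and 26961, 28375 and 29028 under MS023 (-0.39, adjusted p = 0.0033), and Pck2, a mitochondrial carboxykinase, had 16672, 12600.4 and 14509 and 9858, 9945 and 10417 (-0.53, adjusted p = 0.0032). In the serine and one-carbon branch Phgdh (-0.34), Psat1 (-0.22), Psph (-0.37) and Shmt2 (-0.43) were lower. The exception was Slc7a3, a cationic amino acid transporter, with 50.1, 33 and 42.2 under vehicle and 86.2, 114 and 122 under MS023 (1.35, adjusted p = 0.0015). Atf4 itself was not called (-0.081, adjusted p = 0.27), nor was Ddit3 (6758, 3022 and 5215 against 3058, 3878 and 3931, -0.397, adjusted p = 0.32). The mean of this list varied within the vehicle group more than that of the other lists in the plot of list levels: relative to the vehicle mean, the vehicle libraries stood at 0.195, -0.25 and 0.052 and the MS023 libraries at -0.33, -0.201 and -0.15, so vehicle 2 lay inside the MS023 range. Without vehicle 2, 21 members were lower, and without vehicle 1, 3 were higher. Of the cytosolic tRNA synthetases, which load amino acids onto tRNA, 14 of 23 were lower and 1 higher, with a median of -0.24, and 13 of 20 were lower without 3 members shared with the interferon, MYC or E2F lists. Vars, for valine, had 26002, 24345 and 26069.7 and 14025, 14639 and 15590 (-0.79, adjusted p = 2.1e-05), Rars, for arginine, had 20032, 18349.7 and 19703 and 13606, 13911 and 13821 (-0.49, adjusted p = 3.1e-04), and Qars, for glutamine, was the member that was higher (5848, 6033 and 5880.4 against 7691, 6824 and 7459, 0.31, adjusted p = 0.003).

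**Figure D3:**
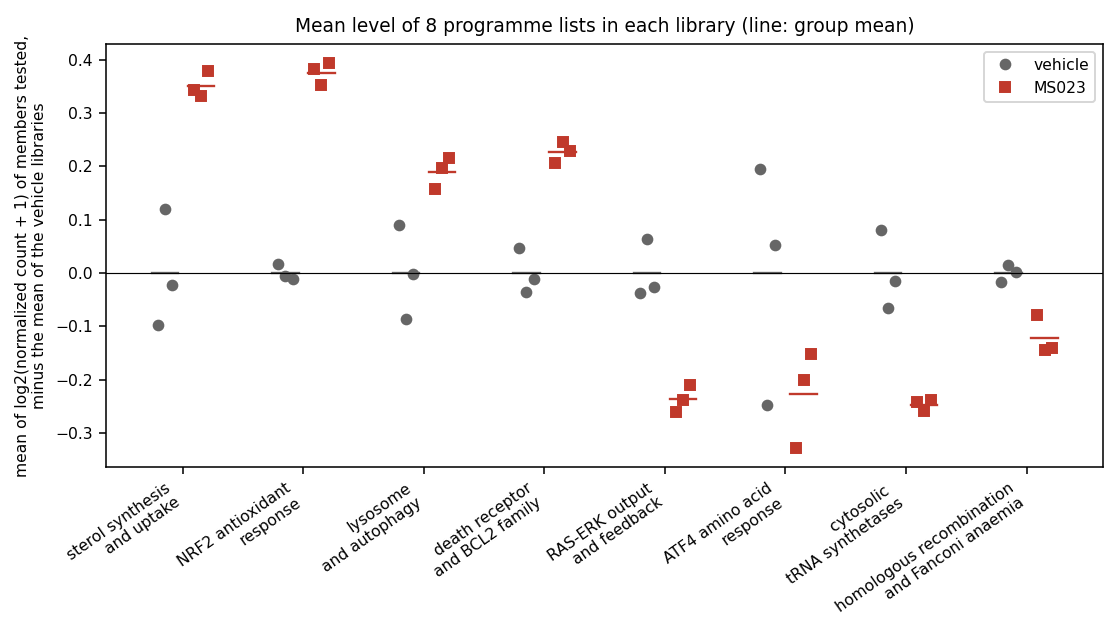
Mean log2(normalized count + 1) of the members tested in 8 programme lists, minus the mean of the vehicle libraries (vertical axis), in each vehicle (circles) and MS023 library (squares), with a line at the group mean. The groups are apart in 7 lists, and in the ATF4 list vehicle 2 lies among the MS023 libraries.

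Cell death can start at death receptors of the TNF family or at mitochondria, where BH3-only proteins counter BCL2. Of the 35 members tested of this list 15 were higher and 6 lower under MS023, with a median of 0.19, and 3 were lower without vehicle 3, MS023 1 or MS023 2. Bmf, a BH3-only protein, had 239.5, 175 and 123 normalized counts under vehicle and 452, 588 and 532 under MS023 (1.59, adjusted p = 4.0e-04). Casp12 had 297, 257 and 289 and 674, 677 and 623 (1.23, adjusted p = 5.1e-05). The BH3-only genes Bcl2l11 (0.45) and Bid (0.399) and the executioner caspase Casp6 (0.37) were also higher. The death ligand Tnfsf10 was higher from a low level (56.2, 58.6 and 73.6 against 138, 108 and 120.1, 0.95). Fas, a death receptor, had 15.9, 13.2 and 19.3 and 38.7, 31.7 and 31 (1.03), and was not called without vehicle 2 or without any 1 of the MS023 libraries. On the opposing side, Cflar, which blocks caspase-8 at death receptors, had 12892, 13225 and 12964 and 8879, 9220.3 and 9238 (-0.52, adjusted p = 4.7e-05), and Birc5, which encodes survivin (-0.299), was lower too. Apart from these, the receptor Tnfrsf12a was lower (-0.402). The other 3 that were lower, Bcl2 (-0.22), Bcl2l2 (-0.26) and Casp8 (-0.23), are those whose calls were lost without vehicle 3, MS023 1 or MS023 2. Without 3 members that are also in the interferon, MYC or E2F lists, 14 of 32 were higher and 5 lower. Of the p53 targets 11 of 46 were higher (23.9%, beside 13.7% of all genes tested) and 1 lower (2.17%, beside 14.1%), with a median of 0.098. Dram1 (0.74), Trp53inp1 (0.68) and Sesn1 (0.52) were among those higher, while Rrm2b, a ribonucleotide reductase subunit, was lower (3189, 3109.9 and 3239 against 1874, 2217 and 1865, -0.68). Cdkn1a was not called (0.11, adjusted p = 0.26), and Mdm2 was higher by 0.17 with an adjusted p of 0.042, which lay between 0.086 and 0.126 without vehicle 2, vehicle 3 or any 1 of the MS023 libraries. The p53 count was 6 higher without vehicle 3, 5 without MS023 1 or MS023 2 and 4 without MS023 3, and 4 were lower without vehicle 2.

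Homologous recombination and the Fanconi anaemia pathway repair double-strand breaks and crosslinks. Of 50 genes tested 13 were lower (26%, beside 14.1% of all genes tested) and 4 higher (8%, beside 13.7%), with a median of -0.093. Without 6 members that are also in the interferon, MYC or E2F lists, 11 of 44 were lower and 4 higher. Rad50, of the MRE11 complex that senses breaks, had 4819, 5814 and 5698 normalized counts under vehicle and 3263, 3649.8 and 3318 under MS023 (-0.67, adjusted p = 2.0e-04), and Mre11a was lower as well (-0.44). Brca2, a central factor of the pathway (-0.66), the recombination genes Rad51c (-0.46) and Rad51d (-0.61), and Zswim7, another recombination factor (269, 218 and 219 against 130, 155 and 149, -0.69), were lower. In the Fanconi branch Faap24 had 1707, 1723 and 1667 and 1117, 992 and 1026 (-0.703, adjusted p = 8.6e-05), Fancd2 (-0.47) was lower and Fancc was higher (505, 502 and 456 against 664, 646 and 604, 0.39). Bap1, a deubiquitinase, was higher (0.26), and the number higher was 2 without vehicle 3, MS023 1 or MS023 2. Faap24 shares exon bases with Rhpn2 and Fancc with Aopep, and the sums changed by -0.31 and 0.33.

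The 12 largest decreases and increases were taken among genes called, with no overlap of the groups and an average of 100 or more normalized counts in whichever group was higher, without the interferon, MYC and E2F lists and predicted genes. The largest decrease was that of Mnd1, a meiotic gene whose product acts with HOP2 in strand exchange between homologous chromosomes. Mnd1 (ENSMUSG00000033752, chromosome 3, 84087933 to 84155786 of GRCm38) had 798, 775 and 729.6 normalized counts in the vehicle libraries and 66.2, 78.8 and 75.6 in the MS023 libraries. The mean fell from 768 ± 34.8 (SD, n = 3) to 73.5 ± 6.51 (SD, n = 3), a change of -3.37 ± 0.11 (adjusted p = 1.1e-07). Its pseudogene Mnd1-ps was at 0 in every library. Of the 17 meiotic and germline genes that passed the filter, out of 55 listed, 3 were lower (17.6%) and 2 higher (11.8%), with a median of -0.17. These shares are near the 14.1% lower and 13.7% higher of all genes tested. Spo11, which makes the breaks of meiosis, had 231, 125 and 116 and 72.5, 71.1 and 58.1 (-1.15), and its adjusted p was 0.017 and 0.0637 without MS023 3. Brme1 was lower (354, 312 and 339 against 208, 201 and 244, -0.62) and the bromodomain gene Brdt higher (159, 163 and 186 against 264, 277 and 287, 0.702). The other large decreases were in Nxpe4 (207, 206 and 209 against 46.2, 55.8 and 55.2, -1.97), Enox1 (-1.93), the coagulation factor F8 (229, 229 and 195 against 76.9, 79.8 and 31, -1.89), Fhdc1 (-1.87), Phf7 (368, 387 and 377 against 90.6, 121 and 126, -1.75), a gene best known from the male germline, Psg17 (-1.71), Tmem179 (-1.66), Zc3h6 (1187, 929 and 1163 against 279, 396 and 371, -1.65), Lyplal1 (-1.65), Aoc2 (-1.63) and Grip1 (-1.62). These 12 calls were kept in every alternative run.

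The largest increase by the same rule was that of Tspoap1, which encodes a scaffold protein that binds the mitochondrial translocator protein. Tspoap1 (ENSMUSG00000034156, chromosome 11, 87760541 to 87785928) had 115, 163 and 176 normalized counts under vehicle and 1023, 922 and 898 under MS023, with means of 151 ± 32.2 (SD, n = 3) and 948 ± 66.6 (SD, n = 3) and a change of 2.66 ± 0.24 (adjusted p = 7.2e-05). Poln, a DNA polymerase of the A family, had 131, 163 and 160.4 and 649, 615 and 764 (2.15, adjusted p = 1.4e-05). A stretch of 108 exon bases of Poln is also part of Haus3, which lies on the same strand and moved the other way (-0.65, adjusted p = 2.6e-04), and the sum of both genes changed by -0.29. Sema3b, a secreted semaphorin, had 149, 68.5 and 121 and 429.9, 445 and 577 (2.15, adjusted p = 3.8e-04). Gsta1, a glutathione transferase, had 45.2, 55.3 and 62.7 and 226, 219 and 227 (2.03), and with its near-identical copies summed the change was 2.15. Plin4, which coats lipid droplets, had 310.4, 239 and 256 and 729, 802 and 724 (1.49), and Hdc, which makes histamine, had 53.8, 33 and 35 and 128, 106 and 143 (1.63). Every MS023 library lay above every vehicle library in each of these genes, as the rule required. The remaining increases were in Tnfsf13 (1.66), Bmf, Efnb3 (1.52), the protease inhibitor Slpi (1.51), Zdhhc15 (1.43) and Il13ra1 (1.35). Tnfsf13 shares 60.1% of its exon bases with Tnfsfm13 on the same strand, and the sum of both changed by 0.85. These 12 calls also held in every alternative.

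**Figure D4:**
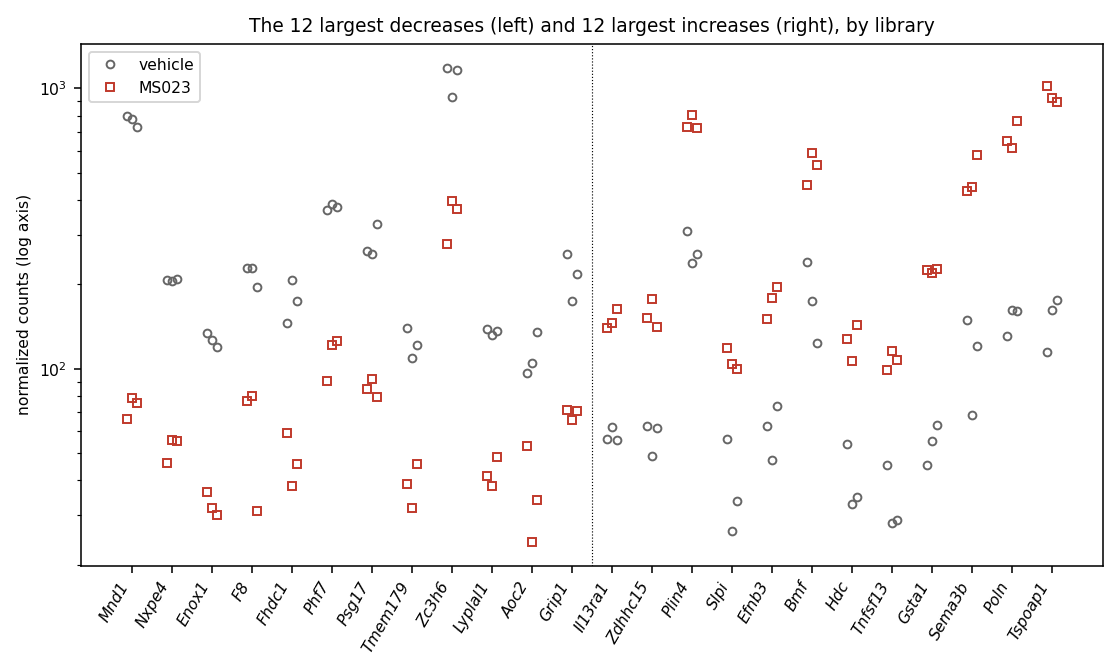
Normalized counts (log axis) of the 12 genes with the largest decreases (left of the dotted line) and the 12 with the largest increases (right) in each vehicle (circles) and MS023 library (squares). Mnd1 goes from 730 to 798 under vehicle to 66.2 to 78.8 under MS023, and no gene has overlapping groups, which the rule required.

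Genes of cell-cell signalling moved in both directions. In TGF-beta and BMP signalling 8 of 46 members tested were higher and 8 lower (median -0.025), close to the shares of all genes. Among the ligands, Bmp6 rose from low counts (28.1, 12.4 and 21.7 against 85.6, 82 and 92, 2.08, adjusted p = 8.8e-04) and Bmp2 was lower (-0.57, adjusted p = 0.032, but 0.0801 to 0.107 without vehicle 2, vehicle 3, MS023 1 or MS023 3). Of the secreted regulators, Fst, which sequesters activin, had 567, 975 and 769 and 352, 302 and 295 (-1.25, adjusted p = 6.2e-04), and the latent TGF-beta binding genes Ltbp1 (-0.38) and Ltbp4 (5838, 4687 and 5427 against 2884, 3254 and 3231, -0.76) were lower. Bmp6 shares 224 exon bases with Txndc5 on the opposite strand, which was at -0.093 (adjusted p = 0.16). The BMP target genes Id1 (1135, 1445 and 1129 against 2187, 1906 and 2067, 0.74), Id2 (0.57) and Id3 (889.7, 1108 and 913 against 1956, 1582 and 1753, 0.86) were higher. Leaving out single libraries brought the number of members higher to 5 (without vehicle 3, MS023 1 or MS023 2) or 4 (without MS023 3), and the number lower to 4 (without vehicle 3 or MS023 3) or 3 (without MS023 1).

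Guidance cues steer migrating cells and axons through semaphorins and their plexin receptors and through ephrins and Eph receptors. Of 26 semaphorin, plexin and neuropilin genes 4 were higher (15.4%) and 3 lower (11.5%), with a median of 0.051. These shares are near the 13.7% higher and 14.1% lower of all genes tested. The ligands Sema3b and Sema4a (1.297) and the receptor Plxnc1 (14.7, 14 and 8.44 against 46.2, 141 and 74.6, 2.61, adjusted p = 9.9e-04) were higher. The more abundant receptors Nrp2 (18409, 20539 and 20589.7 against 14455, 16332 and 16602, -0.33) and Plxna2 (-0.42) and the mediator Dpysl3 (-0.53) were lower, and Plxna2 had an adjusted p of 0.053 without vehicle 3 and 0.0551 without MS023 1. Of 12 ephrin and Eph genes 5 were higher (41.7%, beside 13.7% of all genes tested) and 1 lower (8.33%, beside 14.1%), with a median of 0.18. The ligands Efnb3 (62.3, 47 and 73.6 against 151, 179 and 196, 1.52), Efna3 (0.77) and Efna2 (0.49, not called without MS023 2 or MS023 3) and the receptors Ephb3 (0.44) and Ephb4 (0.23) were higher. Epha2 was lower (-0.28, not called without MS023 1 or MS023 2).

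In the extracellular matrix 11 of 50 genes tested were higher (22%) and 7 lower (14%), with a median of 0.029. Of all genes tested 13.7% were higher and 14.1% lower. Col1a1, a chain of type I collagen, had 18109, 19117 and 18403 normalized counts under vehicle and 10864, 13765 and 14584 under MS023 and was lower (-0.52, adjusted p = 0.0032). Emilin1, an elastic fibre glycoprotein, was higher, with 654, 680.1 and 619 and 1098, 1106 and 1221 (0.81, adjusted p = 6.5e-05). Fmod was higher from 11, 13.2 and 24.1 to 52.5, 51.4 and 52.3 (1.71). The number lower was 3 without vehicle 3, MS023 1 or MS023 2. Of 17 integrins 3 were higher and 3 lower (17.6% each, median 0.22), near the shares of all genes tested. Itga3 (11026, 11256 and 11428 against 16812, 16415 and 17391, 0.59, adjusted p = 3.1e-05) and Itgb7 (0.701) were higher. Itga10 (-0.87) and Itgb1 (-0.18), which had adjusted p of 0.049 and 0.045, were not called in 12 of the alternatives each, and the number of integrins lower was 1 without MS023 1 and 0 without vehicle 3, MS023 2 or MS023 3. Of the proteases and inhibitors 6 of 23 were lower (26.1%) and 4 higher (17.4%), with a median of 0.03. Timp1, an inhibitor of metalloproteases (2294, 2267 and 2104 against 1391, 1356 and 1407, -0.68), and Plaur, the urokinase receptor (-0.55), were lower, and Reck (0.57) and Adamts10 (0.69) higher. Only 20 of 50 epithelial junction and keratin genes passed the filter, and of them 4 were higher (20%) and 1 lower (5%), with a median of 0.103. Krt18 had 1018, 933 and 872 and 1305, 1397 and 1414 (0.55, adjusted p = 6.9e-04), Cldn6 had 6914, 8017 and 7244 and 11669, 11466 and 12484 (0.69, adjusted p = 1.3e-04), and Jup, which encodes plakoglobin, had 686, 590.1 and 589 and 960.3, 1029 and 1261 (0.795, adjusted p = 0.0015). Cdh1 stayed under the filter in both groups. Of the 8 mesenchymal markers, Col1a1 and Cd44 (-0.39, adjusted p = 0.0059) were lower. Sparc was also called lower (-0.16, adjusted p = 0.038), but not in 11 of the 20 alternatives. Vim (0.026, adjusted p = 0.78), Cdh2, Zeb1, Twist1 and Fn1 were not called.

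Splicing regulators are among the known substrates of type I enzymes, and 12 of 71 such genes were lower and 3 higher in transcript level, with a median of -0.071. The 16.9% lower stand beside 14.1% of all genes tested, and 6 to 7 were lower when any MS023 library was left out. Rbmx had 3483, 3567 and 3734 normalized counts under vehicle and 2367, 2230.2 and 2187 under MS023 (-0.67, adjusted p = 2.3e-04), and Cirbp, the cold-inducible RNA-binding protein, had 974, 698 and 907 and 540.5, 537 and 589 (-0.62, adjusted p = 0.0055). Pspc1, a paraspeckle protein, was higher (2845, 2499.9 and 2494 against 3646, 3901 and 3456, 0.49). In methionine and one-carbon metabolism, which supplies the methyl donor, 9 of 35 genes were lower and 2 higher (median -0.077). These are 25.7% lower and 5.71% higher, beside 14.1% and 13.7% of all genes tested. Without 4 members that are also in the MYC or E2F lists 6 of 31 were lower and 1 higher. Mtrr, which keeps methionine synthase active, had 2573, 2542 and 2523 and 1719, 1484 and 1861 (-0.599, adjusted p = 8.5e-04), and Mthfd1l had 11786, 11323 and 11161 and 7699, 8111 and 8414 (-0.501). Padi2, a deiminase that converts arginine residues to citrulline, was lower (803, 648 and 715 against 444, 328 and 249.9, -1.12, adjusted p = 0.0053), and Ddah1, which breaks down free asymmetric dimethylarginine, was higher (2494, 2949.8 and 2797 against 3593, 3699 and 3609, 0.41, adjusted p = 0.0028). Mat2a, which makes S-adenosylmethionine, was not called (0.101, adjusted p = 0.53). Ahcy, which clears the product of methyl transfer, varied widely between libraries of one group (1027, 1219.8 and 357 under vehicle, 1260.2, 525 and 989 under MS023), and the authors' counting may have divided its reads with near-identical copies, with which it summed to a change of -0.17.

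Of the 80 cytosolic ribosomal protein genes 15 were lower and 3 higher, with a median of -0.066 and 18.8% lower beside 14.1% of all genes. Rps28 had 20126, 18374 and 16858 normalized counts under vehicle and 13463, 12814 and 13226 under MS023 (-0.48, adjusted p = 9.2e-04). Rpl5 was listed with 6111, 6365 and 5929.8 and 15259, 14192 and 13061 (1.21, adjusted p = 2.5e-06), far from the other members. Its copy Gm15500, 100% identical over 49.8% of the transcript, moved the other way (-0.27, adjusted p = 0.0035), and Rpl5 and its copies together changed by -0.065, so the change of Rpl5 alone is uncertain. The number lower was 8 without vehicle 1 or MS023 2 and 9 without MS023 1. Of 76 nuclear genes of oxidative phosphorylation 12 were lower and 2 higher (median -0.073), that is 15.8% lower beside 14.1% of all genes, led by Atp5g2 (-0.53), Uqcrq (-0.48) and Cox8a (-0.34), while 7 were lower without vehicle 2, MS023 1 or MS023 3 and 6 without MS023 2, and none was higher without vehicle 2, vehicle 3, MS023 2 or MS023 3. None of the 13 mitochondrially encoded genes was called by limma, edgeR or DESeq2 (1 had an unadjusted limma p under 0.05, and the median was 0.031), and 1 was lower without vehicle 2. In hypoxia and glycolysis 7 of 41 were lower (17.1%, beside 14.1% of all genes) and 2 higher, with a median of -0.12. Hk2, which traps glucose in the cell (10436, 8237 and 9856 against 6948, 6308 and 6242, -0.54), Pdk1, which restrains pyruvate dehydrogenase (9342, 10864 and 9119.6 against 6842, 7431 and 7015, -0.46), and Hif1a (-0.29) were lower and Pfkfb4 was higher (0.51).

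In the remaining lists at most 24.1% of the members were called in 1 direction, beside 13.7% higher and 14.1% lower of all genes tested. Of 30 chaperones and sensors of the endoplasmic reticulum 5 were higher and 2 lower (median 0.084), with the sensor Ern1 at -0.54 (11011, 9103 and 11384 against 6552, 7405 and 7617) and the chaperone Hspa5 not called (-0.022, adjusted p = 0.79), and 9 were higher without vehicle 2 and 3 without vehicle 1, vehicle 3 or MS023 2. Of 26 cytosolic chaperones, with a median of -0.047, 2 were lower, Hspa4l (11077, 15031 and 13578 against 9007, 9283 and 8594, -0.55) and Stip1 (-0.202, adjusted p 0.016, 0.0685 without MS023 2), and 2 were higher without vehicle 2. In WNT signalling 2 of 29 were higher and 3 lower (median 0.05), with Lgr6, a receptor for R-spondins, at -0.91 (664, 747 and 895 against 365, 377 and 488) and the secreted inhibitor Dkk2 at -0.54. In NOTCH signalling 7 of 29 were higher and 2 lower (median 0.096), with the target Hes7 (0.71) higher and the target Nrarp lower (-0.34), and the number higher was 4 without vehicle 3 or MS023 2 and 3 without MS023 3. Of 61 SWI/SNF, Polycomb and DNA methylation genes 6 were higher and 3 lower (median -0.014), with the Polycomb partner Phf19 (-0.32) and the SWI/SNF core subunit Smarcb1 (-0.31) lower. Without vehicle 2, 2 of these were higher and 6 lower, without vehicle 1, 5 were lower, and the number higher was 3 without MS023 1 or MS023 2 and 1 without MS023 3.

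MS023 and GSK3368715 were given at the same dose for the same time, and their libraries were compared directly. Of the 13014 genes tested 67 (0.515%) differed at an adjusted p under 0.05, with 26 higher and 41 lower under MS023, and 1722 had an unadjusted p under 0.05. This count was unstable: it was 2 without MS023 1, 5 without MS023 2, 3 without MS023 3, 11, 10 and 7 without GSK3368715 1, 2 and 3, 28 without vehicle 3 and 114 without vehicle 2, and DESeq2 called 365. All 67 were also called under MS023 against vehicle, and in all 67 MS023 differed from GSK3368715 in the direction of its own change from vehicle. Both comparisons use the same MS023 libraries and the same estimate of spread, so this agreement is partly built in. Mnd1 had 66.2, 78.8 and 75.6 normalized counts under MS023 and 197, 197 and 219 under GSK3368715, a log2 difference of -1.46 (95% interval -1.702 to -1.22, adjusted p = 6.5e-04). Plin4 had 729, 802 and 724 under MS023 and 314, 415 and 279.6 under GSK3368715 (1.18, interval 0.85 to 1.503, adjusted p = 0.015), and Gsta4 had 1538, 1575 and 1549 under MS023 and 1044, 1075 and 1037 under GSK3368715 (0.56, interval 0.42 to 0.702, adjusted p = 0.0095). Insig1 had 13029.8, 13125 and 12613 under MS023 and 9311, 10596 and 9107 under GSK3368715 (0.42, interval 0.29 to 0.55, adjusted p = 0.02). In these 4 genes the libraries of the compounds did not overlap. For 170 of the 187 named genes tested no difference was called, which does not show that the compounds acted alike. The unadjusted 95% interval of the difference ran from 0.18 to 0.83 for Hmgcs1, from 0.197 to 0.77 for Nqo1, from -0.62 to -0.22 for Hbegf and from -0.19 to 0.061 for Prmt1.

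**Figure D5:**
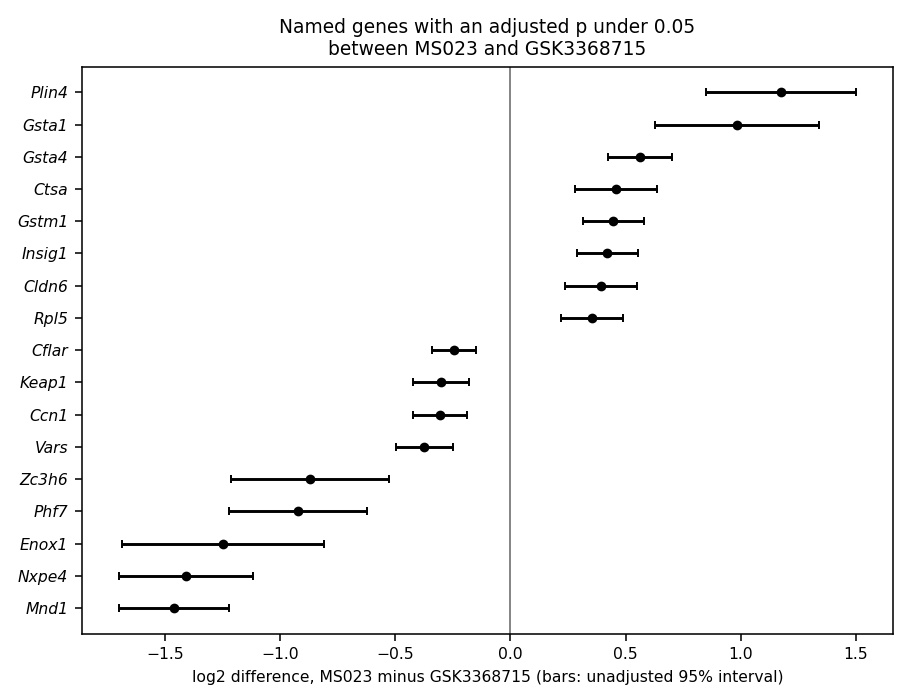
Log2 difference between MS023 and GSK3368715 (horizontal axis) with its unadjusted 95% interval for the named genes with an adjusted p under 0.05 in that comparison. Mnd1 lies lowest, at -1.46, and Plin4 highest, at 1.18.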

How the data were processed

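CT26 cells were given vehicle, MS023 or GSK3368715, and polyA RNA was read on a NextSeq 500 in pairs. According to the methods and labels, the authors quantified transcripts with Salmon 1.4.0 against mm10 and normalized gene counts with DESeq2, whose version is not given in the sources used here. The deposited signal values are therefore gene counts divided by a size factor, one column per library. Whole reads came back for 100% of values within 0.01 of a read, so depth was known. The authors' tables of fold changes and p-values were not used. Salmon divides reads of similar transcripts between genes, so near-identical copies (95% identity over 30% of a transcript, minimap2 2.31-r1302) and genes sharing 50 or more exon bases (GENCODE M21) were summed as a check. Whether counting used strand is not stated.

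All 9 libraries entered 1 limma 3.58.1 fit (lmFit, eBayes with a trend, R 4.3.3) of log2(value + 1), with contrasts of MS023 against vehicle and MS023 against GSK3368715, no covariate, and Benjamini-Hochberg adjustment over 13014 genes at 0.05. limma p-values here are 2-sided. edgeR 4.0.16 on the recovered reads called 3620 genes and DESeq2 1.42.0 called 4026 under MS023 against vehicle. On simulated counts for this comparison (12812 genes tested) limma recovered 200 of 200 changed genes with 9 false calls of 209. The changes put in were of log2 size 1 or 2, in genes with a vehicle mean over 50, and all genes had the same dispersion. The run therefore does not measure recovery or error for smaller changes, such as the median size of 0.38 among the calls, or for genes with few reads. Named genes were the 12 largest increases and decreases described in the text, up to 3 called increases and 3 called decreases of each list with a mean of at least 50, both methyltransferase lists, and a fixed set of pathway genes whatever their call. Lists and members were chosen with earlier results of these data known. Same-numbered libraries of different groups deviated together no more than others (correlation -0.10 to 0.11 in 9 pairs, -0.13 to 0.17 in 18 pairs of different number), so numbers were not taken as pairs. Library pairs all differed by more than sampling noise. Intervals on promoter shares cover counting error only.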

Additional observations from a re-analysis of the deposited data

Results flagged for a closer look

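The flagged values are log2 differences between the MS023 and the GSK3368715 libraries, which were given at the same dose for the same time, and each passed the adjusted limma test of the difference itself. Below 0, that is lower under MS023, were Mnd1 (-1.46), Nxpe4 (-1.41), Enox1 (-1.25), Phf7 (-0.92), Zc3h6 (-0.87), Vars (-0.37), Ccn1 (-0.31), Keap1 (-0.30) and Cflar (-0.25). Above 0 were Plin4 (1.18), Gsta1 (0.99), Gsta4 (0.56), Ctsa (0.46), Gstm1 (0.45), Insig1 (0.42), Cldn6 (0.39) and Rpl5 (0.35). Each of the flagged genes was also called under MS023 against vehicle, in the same direction as its difference between the compounds. Both comparisons share the MS023 libraries, so this agreement is partly built in. The value of Rpl5 is uncertain because of its near-identical copies, and Ctsa overlaps Pltp and Neurl2 on the opposite strand. Depending on the library left out, 2 to 114 genes differed in this comparison, so single genes among these rest on 3 libraries a group and on a count that was not stable.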

How the results depend on the processing

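Of the 169 named genes called under MS023 against vehicle, 133 kept their call in every alternative run. Requiring a log2 change of 1 or more in size left 365 genes, 234 higher and 131 lower. With 1 library left out, 2409 to 3726 genes were called, 1181 to 1850 higher and 1228 to 1876 lower, with the lowest counts without MS023 2. The replicate block gave 3219 genes under MS023 against vehicle. Between the compounds, 67 genes became 38 with no filter, 8 with no trend, 4 with the replicate block, 4 with a log2 difference of at least 1, 365 with DESeq2, and 2 to 114 with 1 library left out. The fold changes that turned their direction were all of genes not called: with equal totals Clns1a was at 0.0001 and Hspa5 at 0.0132, and with 1 library left out Prmt6 ranged from -0.006 to 0.0757, Hspa5 from -0.043 to 0.0056, Ccn2 from -0.173 to 0.0207, Vim from -0.0108 to 0.0536 and Ahcy from -0.3657 to 0.5452. The cause was not tested. Of 1280 list counts under alternatives, 156 moved by over 1.5 times, 112 of them with a library left out, which has fewer libraries to test. With equal totals the lists of YAP-TEAD targets and of RAS-ERK output had 3 members lower and 2 higher respectively. The promoter shares moved by less than their intervals under the shorter window. Genes with few reads are limited by 3 libraries a group.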
